A study of Mus musculus with 12 samples.

Results

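The 38 genes described here carry out the cell division cycle and DNA replication, and they were chosen by name for what they do, with earlier results of these data known. They are 38 of the 50600 gene identifiers in the tables, and all 38 passed the filter on low counts that left 16396 genes. RNA with polyA tails had been sequenced from CD8+ T cells, the cytotoxic lymphocytes, taken from lymph nodes of male C57BL/6J mice 8 weeks old. All animals lived in constant darkness, so that time of day is circadian time (CT), set by the internal clock, and mice are active in the subjective night that begins at CT12. The libraries came from CT2, CT6, CT10, CT14, CT18 and CT22 h on each of 2 days, 1 library per time and day and 12 in all. There was no genetic change, drug or other treatment. Neither the number of mice in a sample nor the way the CD8+ cells were isolated is in the labels, so each p-value measures only how far these samples spread.

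A cell that divides passes from G1, where D cyclins with CDK4 or CDK6 loosen the hold of RB on the E2F factors, into S phase, where cyclin E with CDK2 starts replication. Before that, CDC6 and CDT1 load the ring of MCM2 to MCM7 onto replication origins, a step called licensing, and CDC45 and the GINS complex later turn that ring into a working helicase. Mitosis then needs cyclin A and B with CDK1, the PLK1 and Aurora kinases, and the spindle checkpoint. Resting naive T cells make up most of a lymph node's CD8+ cells and stay outside the cycle in G0, while antigen or cytokine signals bring single cells into it.

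The libraries held 24689964 to 33497078 counts on genes. Cd8a and Cd8b1, the 2 chains of the CD8 co-receptor, stood at 1406 ± 99.6 and 1119 ± 94.1 CPM (counts scaled to library size by TMM, SD, n = 12), and Cd3e, a signalling chain beside the T cell receptor, at 552 ± 38 CPM (SD, n = 12). The paired libraries of CT2 stood apart: over the tested genes, their chi-square per degree of freedom was 37.5, against 2.95 to 10.1 for the pairs of the other 5 times. The tests of Ccnd2, Cdk2 and Pcna and the measures of spread between days and times are therefore given without those libraries too.

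Promoters are shown for 4 mitotic genes that varied together between libraries and for 2 licensing genes that varied less, since this contrast runs through the results. Each line is the window from 250 bases before to 50 after the RefSeq start, in GRCm38.p6, read 5′ to 3′ on the gene's own strand. Capitals mark letters of the CHR element (TTTGAA) and the CCAAT box (CCAAT), both usual in promoters of mitotic genes, and of 4 forms of the E2F site (TTTCCCGC, TTTGGCGC, TTTCGCGC and TTTGCCGC), usual in replication genes. Both strands were searched, so the reverse complements of these letters are in capitals too. These windows are examples and do not stand for every gene of their groups. Each of the 4 mitotic windows held CHR letters at 2 places. The other mitotic windows held them at fewer places, or at none in Ccnb1, Bub1, Cenpe and Birc5. Mcm2, a licensing gene not shown, held CHR letters and no E2F form.
Mki67 encodes the proliferation antigen Ki-67, and its window is chr7:135716330-135716629 (minus strand).
Mki67: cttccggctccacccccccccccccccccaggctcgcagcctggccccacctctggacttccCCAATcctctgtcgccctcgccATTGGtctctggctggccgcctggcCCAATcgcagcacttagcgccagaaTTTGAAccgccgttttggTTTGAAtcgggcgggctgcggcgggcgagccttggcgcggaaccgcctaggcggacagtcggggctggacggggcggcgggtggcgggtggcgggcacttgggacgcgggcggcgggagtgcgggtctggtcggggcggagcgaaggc
Top2a encodes the topoisomerase that untangles sister chromosomes, and its window is chr11:99024140-99024439 (minus strand).
Top2a: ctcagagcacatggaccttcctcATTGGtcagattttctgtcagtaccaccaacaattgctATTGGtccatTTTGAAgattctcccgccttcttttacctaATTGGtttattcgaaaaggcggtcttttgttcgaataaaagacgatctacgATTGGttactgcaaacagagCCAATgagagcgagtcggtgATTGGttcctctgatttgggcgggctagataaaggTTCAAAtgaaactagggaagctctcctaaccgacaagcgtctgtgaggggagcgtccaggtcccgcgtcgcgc
Ccnb2 encodes cyclin B2, and its window is chr9:70421505-70421804 (minus strand).
Ccnb2: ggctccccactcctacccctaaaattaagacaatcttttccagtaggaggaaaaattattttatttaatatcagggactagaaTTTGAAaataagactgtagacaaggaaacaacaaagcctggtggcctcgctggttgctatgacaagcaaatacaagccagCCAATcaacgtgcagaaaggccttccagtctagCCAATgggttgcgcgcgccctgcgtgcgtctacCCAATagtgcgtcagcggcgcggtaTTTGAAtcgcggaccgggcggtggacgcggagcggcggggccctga
Cdk1 encodes the kinase that drives entry into mitosis, and its window is chr10:69352863-69353162 (minus strand).
Cdk1: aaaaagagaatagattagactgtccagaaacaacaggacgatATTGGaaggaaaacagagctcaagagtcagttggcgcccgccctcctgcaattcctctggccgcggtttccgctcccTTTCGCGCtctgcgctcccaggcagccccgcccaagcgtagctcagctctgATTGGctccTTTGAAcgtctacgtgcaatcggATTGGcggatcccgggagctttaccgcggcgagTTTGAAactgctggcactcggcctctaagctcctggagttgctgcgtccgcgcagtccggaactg
Mcm5 encodes a subunit of the replicative helicase, and its window is chr8:75109259-75109558 (plus strand).
Mcm5: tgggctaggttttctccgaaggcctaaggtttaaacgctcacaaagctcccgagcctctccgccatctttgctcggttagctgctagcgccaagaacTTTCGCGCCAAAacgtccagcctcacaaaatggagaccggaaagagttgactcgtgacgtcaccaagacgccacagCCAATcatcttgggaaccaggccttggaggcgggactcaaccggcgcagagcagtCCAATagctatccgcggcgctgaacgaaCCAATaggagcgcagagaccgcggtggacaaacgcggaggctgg
Mcm6 encodes another subunit of that ring, and its window is chr1:128359656-128359955 (minus strand).
Mcm6: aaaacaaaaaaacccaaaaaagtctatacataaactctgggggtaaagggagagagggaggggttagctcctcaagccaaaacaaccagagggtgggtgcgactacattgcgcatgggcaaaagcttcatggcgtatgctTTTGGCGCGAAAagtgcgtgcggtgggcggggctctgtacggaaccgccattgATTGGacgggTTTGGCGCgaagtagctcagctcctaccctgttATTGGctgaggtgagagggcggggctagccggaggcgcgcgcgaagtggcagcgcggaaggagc

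The promoters of the mitotic and the replication genes differed in their letters. Of the 38 genes, 31 had a window in the table, some more than 1, and a gene is counted where any of its windows holds the letters. Among the 14 mitotic genes with a window, 10 (71.4%) held CHR letters, 13 (92.9%) held a CCAAT box and 10 held both, while 1 of them, Cdk1, held an E2F form. Among the 14 licensing, helicase and fork genes with a window, 2 (14.3%) held CHR letters, Mcm2 and Cdc45, 10 (71.4%) held a CCAAT box and 7 (50%) held an E2F form. Of the 5 Mcm genes with a window, all but Mcm2 held an E2F form, and all 5 held a CCAAT box. Over all 27025 genes with windows of that length, 20.2% held CHR letters, 41.1% a CCAAT box, 2.61% an E2F form and 8.97% both CHR letters and a CCAAT box. E2F forms on opposite strands shared 4 bases in Mcm5 and in Mcm6, where they run together as 1 stretch of capitals. Matches describe the letters and do not show binding, and their part in the variation between libraries was not tested. Cdc6, with an E2F form and no CHR letters, had the widest SD over libraries of the 38 genes, 0.36 log2. Ccnd2, Ccne2, Mcm4, Gins1, Gins2, Ccna2 and Aurkb were not matched.

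**Figure D1:**
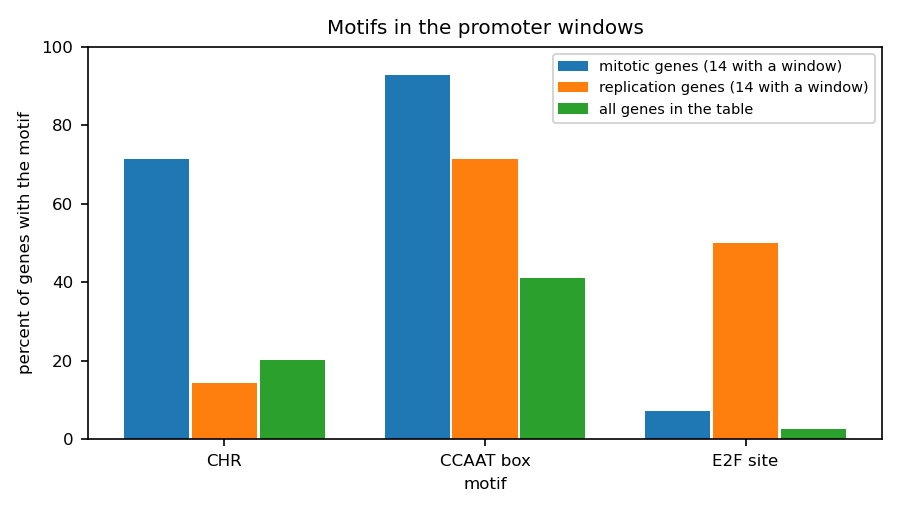
Share of genes (percent, y axis) with each motif (x axis) in any promoter window, among 14 mitotic genes, 14 replication genes and all 27025 genes with a window. CHR letters stand at 71.4% in the mitotic genes and 14.3% in the replication genes, and E2F forms at 7.14% and 50%.

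Levels between genes were compared in TPM, RSEM's estimate of transcript abundance per length. Together the 38 genes held 1084 to 1259 TPM of a library. Pcna, the sliding clamp of the replication fork, had the highest mean, 175 ± 13.7 TPM, followed by the D cyclins Ccnd3 at 150.3 ± 12.9 and Ccnd2 at 145 ± 18.3 TPM (SD, n = 12 for each). The levels of Ccnd3 and Ccnd2 did not differ beyond their spread. The rank of Pcna is uncertain, since RSEM gave it 1.202 times its gene counts, against a median ratio of 0.917 over the 38 genes. The 6 Mcm genes ran from Mcm6 at 67.9 ± 2.82 and Mcm7 at 64.2 ± 2.98 TPM, the next in order, down to Mcm2 at 34.3 ± 1.67 TPM (SD, n = 12). Among mitotic genes Top2a was highest at 45.8 ± 7.49 TPM, within the range of the Mcm genes and ahead of Mki67 at 22.0 ± 3.84 TPM (SD, n = 12). At the other end were cyclin E2 (Ccne2) at 2.78 ± 0.784 TPM, the loader Cdc6 at 3.54 ± 0.762 and the checkpoint kinase Bub1 at 4.42 ± 0.991 TPM (SD, n = 12). In bulk RNA, fewer dividing cells and less RNA per dividing cell cannot be told apart.

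**Figure D2:**
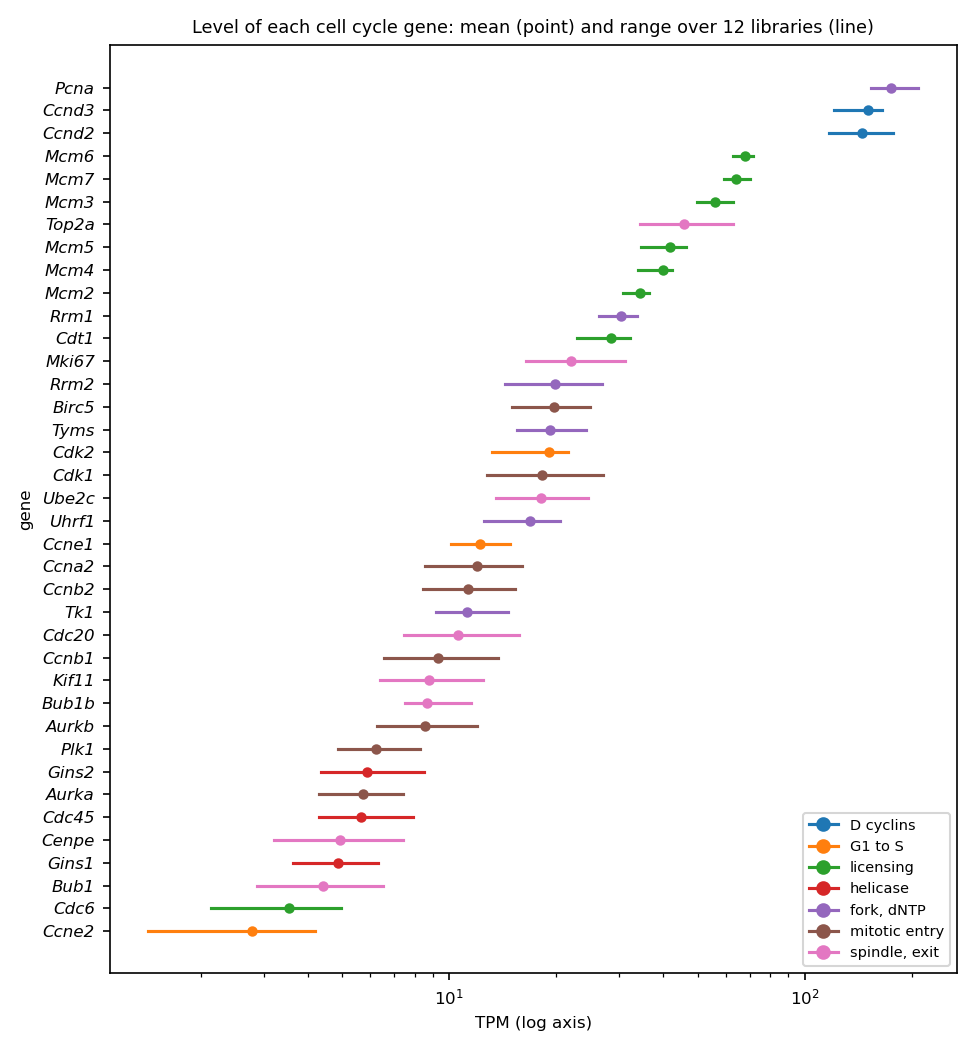
Mean (point) and range over 12 libraries (line) of each gene in TPM on a log axis, coloured by role. Pcna, Ccnd3 and Ccnd2 stand above 100 TPM, the Mcm genes lie below them with short lines, and the mitotic genes have longer lines and lie lower, apart from Top2a, which stands among the Mcm genes.

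None of the 38 genes passed the threshold of an adjusted p of 0.05 for circadian time or for day. With edgeR's quasi-likelihood test and Benjamini-Hochberg adjustment over all 16396 genes, none passed for a 24 h wave, where 0 percent of all tested genes did. For differences among the 6 times none passed, where 42 genes (0.256 percent) did. None passed for day 2 against day 1, where again 0 percent of all genes did. At an unadjusted p under 0.05 the wave had 4 of the 38 genes (Ccnd2, Ccnd3, Cdk2 and Gins2) against 13.3 percent of all genes, the times had 2 (Ccnd2 and Cdk2) against 12.7 percent, and the day had 0 against 1.82 percent. DESeq2 called 1 of the 38 for the wave and for the times, Ccnd2 in both, where it called 246 and 516 of all 16396 genes. Fitted 24 h amplitudes, the log2 distance from mean to peak, ran from 0.02 to 0.22 with a median of 0.07. The median over all tested genes was 0.10. On simulated counts the wave test recovered 12% of genes given an amplitude of 0.2 log2, so most waves of that size were missed. Differences between the days ran from -0.18 log2 for Cdc6 to 0.07 for Plk1. Without CT2 of both days, CT6 of day 1 and CT10 of day 1, left out after seeing the data, those of Cdc6 and Ccnb1 turned from -0.18 and -0.17 to 0.057 and 0.032 log2. The libraries of the days overlapped in all 38 genes, where 0.061 percent of all genes had no overlap.

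Cyclin D2 (Ccnd2, chr6:127125162-127152193 on the minus strand), which links growth signals to G1 entry in lymphocytes, was the gene of the 38 most tied to time of day. It stood at 818 and 878 CPM in the CT14 libraries of day 1 and day 2. At the neighbouring CT10 it read 691 and 673 CPM, and at CT18 740.3 and 674 CPM. The remaining libraries held 633 and 686 CPM at CT2, 599 and 636 at CT6, and 656 and 667 at CT22. Both CT14 libraries thus lay above the other 10, which was so for no other of the 38 genes and for 4.72 percent of all tested genes. The time means ran from 618 ± 26.1 CPM at CT6 to 848 ± 42.0 CPM at CT14 (SD, n = 2). Time accounted for 90.6% of its variance on the log2 scale, against a median of 52.8% over all tested genes. The fitted wave had an amplitude of 0.17 ± 0.04 log2 (SE) with its peak at CT 15.0 ± 0.94 h. In edgeR's quasi-likelihood test its adjusted p was 0.238 for the wave and 0.127 for the times. Without both CT2 libraries those adjusted p became 0.0375 and 0.0169, in DESeq2 0.0288 and 1.592e-06, and with no filter on low counts 0.0305 and 8.441e-06. Other settings left it uncalled: limma on log2(TPM + 0.5) gave 0.422 and 0.414. In edgeR's test, RSEM expected counts gave 0.252 and 0.154, and the day as a block 0.306 and 0.221. The call thus depends on the CT2 libraries, the tool and the filter. The same 2 libraries held the most counts (32205484 and 33497078), the lowest sums of naive T cell markers (2771 and 2839 CPM) and the highest of effector CD8 T cell markers (168 and 175 CPM), and the part of these in the Ccnd2 level was not tested. Without a CT14 library, of day 1 or of day 2, the adjusted p for the times was 0.441 or 0.597.

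**Figure D3:**
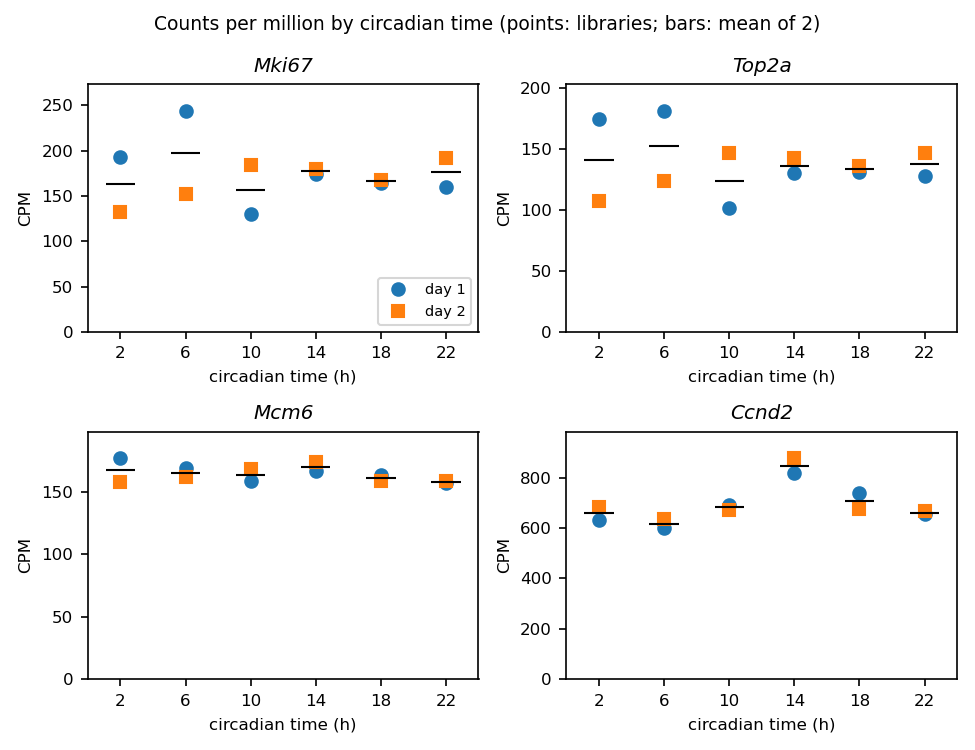
CPM (y axis, from 0) by circadian time in h (x axis) for Mki67, Top2a, Mcm6 and Ccnd2, with 1 point per library, blue circles for day 1, orange squares for day 2 and bars for the mean of 2. Ccnd2 stands highest at CT14 on both days, Mcm6 stays level, and the days of Mki67 and Top2a lie far apart at CT2, CT6 and CT10.

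Cyclin D3 (Ccnd3, chr17:47505051-47599691, plus strand), the other D cyclin of T cells, varied little. Its lowest library was CT6 of day 1 at 163 CPM, its median 181 and its highest CT14 of day 2 at 198 CPM. The CT14 libraries, at 196 and 198 CPM, were matched by CT10 of day 2 at 197 CPM. Its amplitude was 0.08 ± 0.03 log2 (SE) with a peak at 14.4 h, and edgeR's quasi-likelihood test gave an adjusted p of 0.358.

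Of the genes that take a cell from G1 into S phase, Cdk2, the kinase partner of cyclins E and A, came nearest to a wave. It was low at CT2, with 29.8 and 35.2 CPM, and held 36.0 to 42.0 CPM in the other 10 libraries, so both CT2 libraries lay below all others. CT2 of day 1 was the lowest library for 18.2 percent of all tested genes. The share of genes with both CT2 libraries lowest was not counted. The amplitude was 0.13 ± 0.04 log2 (SE) with the peak at 12.4 h, and in edgeR's quasi-likelihood test the adjusted p was 0.259 for the wave and 0.299 for the times. Without CT2 of day 2 alone the latter was 0.0271, which passed, and without both CT2 libraries it was 0.3604, with the wave's amplitude at 0.08 log2. Cyclin E1 (Ccne1) ranged from 16.5 through a median of 18.7 to 21.8 CPM. Cyclin E2 (Ccne2) was scarcer and more uneven, from 2.59 CPM in CT2 of day 2 to 5.06 CPM in CT6 of day 1.

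The 6 Mcm genes, subunits of the licensed ring, varied least of the groups of genes described here. Mcm6 lay between 157 and 177 CPM with a median of 162, a 1.13-fold range, and the widest of the 6 Mcm genes was Mcm5 with 75.9 to 106 CPM, a 1.39-fold range. Median SD over libraries was 0.07 log2 for the Mcm genes, against 0.11 log2 over the 10153 tested genes that averaged 5 CPM or more. Their small differences between libraries had a shared order. CT10 of day 1 was the lowest library for 5 of 6, Mcm6 being the exception, and for 13 percent of all tested genes. All 6 were higher on day 2 at CT10, as were 7897 of the 16396 tested genes. The median difference of the 6 was 0.17 log2. Cdt1, which loads the ring beside Cdc6, ranged from 43.7 to 52.9 CPM and was highest in CT10 of day 1, where most of the Mcm genes were lowest.

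Cdc6, the other loader, varied much more than the ring it loads. On day 1 it held 11.3 CPM at CT2, 11.8 at CT6 and 5.52 at CT10. On day 2 it held 5.30, 6.74 and 8.63 CPM at those times. From CT14 to CT22 the libraries lay between 7.70 and 9.61 CPM. The days thus crossed over, day 1 being the higher at CT2 and CT6 and day 2 at CT10. Time accounted for 18.6% of its variance, against a median of 52.8% over all tested genes. Without both CT2 libraries these shares were 29.8% and 56.1%.

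Helicase partners and fork genes shared that crossing. Gins1 and Gins2, subunits of the GINS complex, ranged from 2.80 to 6.32 and from 5.41 to 8.16 CPM, and Cdc45 from 8.00 to 13.1 CPM. For Gins1 the highest library was CT2 of day 1 (without CT2 it was CT6 of day 1), and for Gins2 and Cdc45 it was CT6 of day 1. Gins2 had a 24 h amplitude of 0.19 ± 0.07 log2 (SE) with a peak at 5.70 h and an adjusted p of 0.351 in edgeR's quasi-likelihood test. The 6 genes of the fork, nucleotide supply and maintenance were all lower on day 2 at CT2 and at CT6, by medians of 0.41 and 0.34 log2, and all higher on day 2 at CT10, by 0.35 log2. They are Pcna, the subunits Rrm1 and Rrm2 of ribonucleotide reductase, the thymidylate makers Tyms and Tk1, and Uhrf1, which keeps DNA methylation through replication. Of all 16396 tested genes, 8247 were lower on day 2 at CT2 and 7757 at CT6, and 7897 were higher at CT10.

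Pcna (chr2:132249162-132253314, minus strand) was high in a single library. It read 215 CPM in CT2 of day 1 and 130.4 to 164 CPM in the other 11. Its adjusted p for the times, 0.6101 in edgeR's quasi-likelihood test, was 0.00655 without CT2 of day 2, 0.00269 with no filter on low counts and 0.347 without both CT2 libraries. Rrm2, which sets the supply of deoxynucleotides, had its highest library in CT6 of day 1 instead, at 42.1 CPM against a median of 33.0 and a lowest of 23.1 CPM in CT2 of day 2. Rrm1 ranged from 75.1 to 102 CPM, Tyms from 12.5 to 18.2, Tk1 from 9.31 to 15.0 and Uhrf1 from 32.0 to 49.3 CPM. RSEM, which also places reads that map to several sites, counted 1.26 times as much Ccnb1 as the gene counts did, beside the 1.202 for Pcna, so the counts of these 2 genes are uncertain.

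The 16 mitotic genes varied together from library to library, and the libraries of 1 time differed between the days. CT6 of day 1 was the highest library for 15 of 16, where it was so for 10.2 percent of all tested genes, and Cdk1, the exception, had it second. CT10 of day 1 was lowest for 10 of 16 (13 percent of all genes) and CT2 of day 2 for 5 (10.6 percent of all genes), while Cdc20 was lowest in CT2 of day 1. Relative to each gene's mean, the median of the 16 was 0.42 log2 in CT6 of day 1, -0.33 in CT10 of day 1 and -0.34 in CT2 of day 2. CT2 of day 1 lay at 0.16, and the remaining 8 libraries lay between -0.08 and 0.13.

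Mki67 (chr7:135689784-135716361, minus strand), used to count dividing cells, read 193 and 133 CPM at CT2, 244 and 152 at CT6, and 129.8 and 184 at CT10, day 1 first in each pair. It read 174 and 180.3 CPM at CT14, 165 and 168 at CT18, and 160.0 and 192 at CT22. The highest and lowest libraries were thus 1.88-fold apart and both came from day 1. With no filter on low counts, edgeR's quasi-likelihood test also called Mki67 and Rrm2 for the times (adjusted p = 0.00811 and 0.00427), against 0.872 and 0.709 with the filter. The 95% exact Poisson intervals, which cover counting error only, were 238.1 to 249.7 CPM for CT6 and 125.7 to 134.1 CPM for CT10 of that day.

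Top2a (chr11:98992943-99024189, minus strand) followed the same order, with 175 and 107 CPM at CT2, 181 and 123 at CT6, and 102 and 146 at CT10. From CT14 to CT22 it stayed between 127 and 147 CPM. Cdk1 (chr10:69335146-69352938, minus strand) had the widest range of the 38, 2.31-fold, with 20.8 CPM in CT2 and 20.1 CPM in CT6 of day 1 against 8.99 CPM in CT10 of day 1. Its partner cyclins spanned 20.3 to 37.2 CPM for Ccna2, 8.07 to 14.8 for Ccnb1 and 10.3 to 18.1 for Ccnb2.

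The mitotic kinases and their partners gave the same picture. Plk1, which acts from mitotic entry to exit, ranged from 9.01 to 14.7 CPM, Aurka, the spindle pole kinase, from 6.55 to 10.8, Aurkb, the kinase of the chromosomal passenger complex, from 9.02 to 14.3, and Birc5 (survivin), of the same complex, from 11.0 to 17.8 CPM. Among spindle checkpoint and motor genes, Bub1 spanned 7.29 to 13.1 CPM, Bub1b 18.3 to 32.7, the kinetochore motor Cenpe 20.5 to 34.8 and the spindle motor Kif11 26.1 to 49.9 CPM. Cdc20 and Ube2c, which serve the ligase that ends mitosis, spanned 12.9 to 19.2 and 10.2 to 17.5 CPM. The median gene of the 16 had a 1.77-fold range, where the median of the 6 Mcm genes was 1.17-fold.

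**Figure D4:**
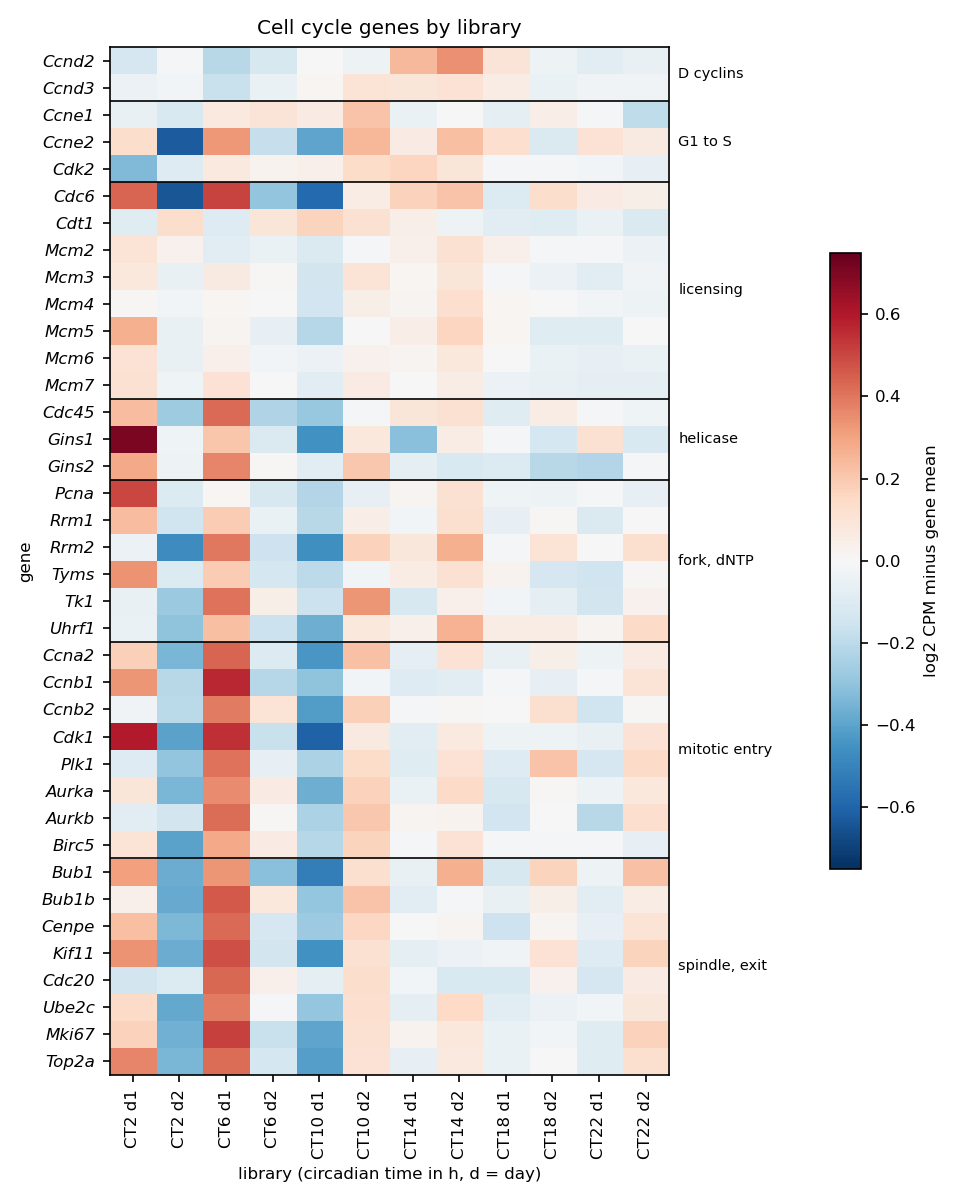
Each gene (rows, grouped by role) in each library (columns, circadian time in h and day), as log2 CPM minus the gene's mean over 12 libraries. The column of CT6 of day 1 is red and those of CT10 of day 1 and CT2 of day 2 are blue across the mitotic rows, the Mcm rows are pale, and Ccnd2 is red at CT14 on both days.

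In most of the 38 genes the largest gap between days at 1 time was wider than the spread between times. At CT6 all 16 mitotic genes were lower on day 2, by a median of 0.50 log2, and at CT2 15 of 16 were lower, by a median of 0.53. At CT10 all 16 were higher on day 2, by a median of 0.51 log2. At CT14, CT18 and CT22 the medians were 0.10, 0.11 and 0.16 log2. For all tested genes the median size of the gap was 0.24 log2 at CT2, 0.15 at CT6 and 0.14 at CT10. Of these 16396 genes, 8247 were lower on day 2 at CT2 and 7757 at CT6, and 7897 were higher at CT10. The largest gap between days exceeded the spread of the 6 time means in 16 of 16 mitotic genes and 32 of the 38 genes (84.2%), against 60.5% of all tested genes. The gap is the largest of 6 differences between single libraries, while the spread is between means of 2 libraries. It can therefore exceed the spread even where neither time nor day has an effect. Time accounted for a median of 25.2% of the variance in the mitotic genes, 43.1% in the Mcm genes and 52.8% over all tested genes. With 2 libraries per time, the 6 time means take up part of the variance even where time has no effect. Without both CT2 libraries, chosen for these measures after seeing the data, the gap exceeded the spread in 16 of 16 mitotic genes, 30 of the 38 genes and 53.7% of all tested genes, and the medians for time were 28.7%, 53.6% and 56.1%. The CT6 gap lay between 0.50 and 0.55 log2 under 5 other scalings and units, whereas the CT2 gap was 0.27 log2 on the log2(TPM + 0.5) scale.

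Markers of other cell types differed between the same libraries. Dendritic cell markers (6 of 6 passed the filter) summed to 689 CPM in CT6 of day 1, their highest. They were lowest in CT2 of day 2 at 352 CPM and in CT10 of day 1 at 374 CPM. In CT14 of day 1 they read 686 CPM, where the mitotic median was -0.06 log2 against the gene means. Plasma cell markers (6 of 6) spanned 84.7 CPM in CT10 of day 1 to 147 in CT6 of day 1. CD4 T cell markers (4 of 4) spanned 69.6 to 113 CPM in the same libraries, and read 111 CPM in CT22 of day 2. CD8 T cell markers (6 of 6) were lowest in CT6 of day 1 at 4309 CPM and highest in CT2 of day 2 at 5394 CPM. B cell markers (8 of 8) summed to 149 to 295 CPM, germinal centre B cell markers (7 of 7) to 64.1 to 80.9, NK cell markers (5 of 5) to 140.1 to 208 and stroma and endothelium markers (5 of 6) to 139 to 188 CPM. Monocyte and macrophage markers (10 of 10) ran from 612 CPM in CT10 of day 1 to 1590.4 in CT22 of day 2, where the mitotic genes lay 0.10 log2 above their means, and neutrophil markers (5 of 5) from 11.3 to 93.4 CPM. Effector CD8 T cell markers (6 of 6) spanned 128 to 175 CPM, and naive T cell markers (4 of 4) 2771 to 3371 CPM. Erythroid markers (1 of 4) summed to at most 2.82 CPM, with Alas2 at 0 in 2 libraries. Outside the erythroid list only Pdpn of the stroma list was at 0, in 1 library. Their part in the levels of the cell cycle genes was not tested.

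**Figure D5:**
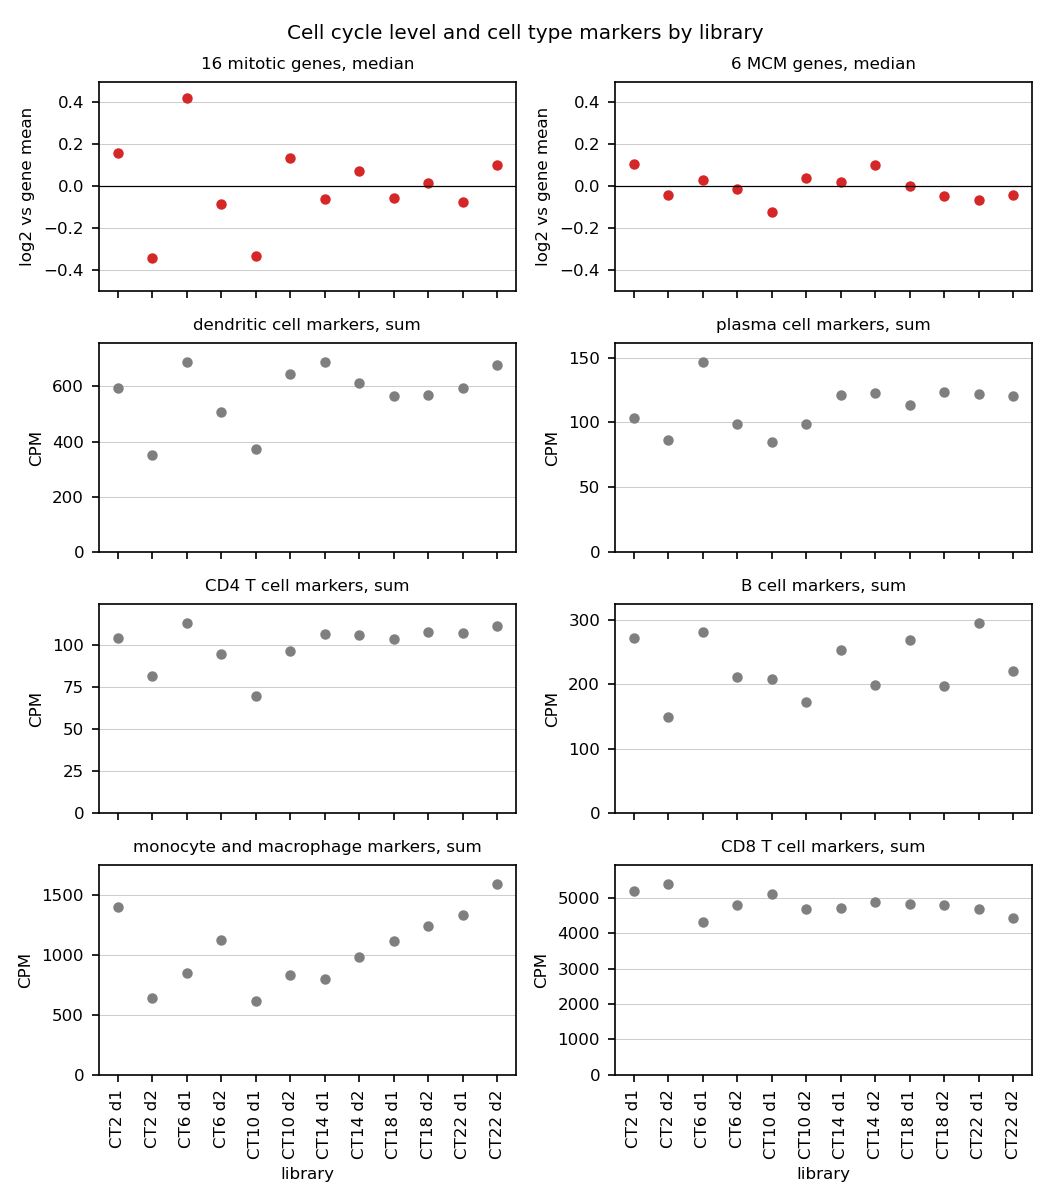
Median log2 level of the 16 mitotic and 6 Mcm genes against each gene's mean (top panels) and summed CPM of 6 marker lists (other panels, y axis from 0), 1 point per library. The dendritic, plasma and CD4 T cell panels share with the mitotic panel low points in CT2 of day 2 and CT10 of day 1. Each is highest in CT6 of day 1. That point is nearly matched by CT14 of day 1 in the dendritic panel and by CT22 of day 2 in the CD4 T cell panel. The CD8 panel has its lowest point in CT6 of day 1.

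Further genes of the same pathways also stayed below the threshold. None of 19 E2F, RB and MuvB regulators, 12 other G1 genes, 32 other replication genes, 34 other mitotic genes and 14 checkpoint and quiescence genes passed edgeR's quasi-likelihood test, for the wave, the times or the day. At an unadjusted p under 0.05, the wave had 1, 1, 5, 0 and 2 of them in that order, the times 1, 1, 2, 0 and 1, and the day 0, 1, 0, 0 and 0. The shares over all tested genes were 13.3 percent for the wave, 12.7 percent for the times and 1.82 percent for the day, and the 5 of 32 other replication genes, 15.6%, lay near the first of these. The 34 other mitotic genes, chosen by name, shared the library pattern of the 16, with medians of 0.37 log2 in CT6 of day 1, -0.29 in CT10 of day 1 and -0.26 in CT2 of day 2. On day 2, 33 of these 34 were lower at CT6 and 32 were higher at CT10, against 7757 and 7897 of all 16396 tested genes.

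The nearest to the threshold was Dbf4, the activating subunit of the CDC7 kinase that fires licensed origins. It read 54.1 and 55.8 CPM at CT14 and 39.4 to 46.0 CPM in the other 10 libraries, and its adjusted p for the times was 0.0943 in edgeR's quasi-likelihood test. Chek2, a DNA damage checkpoint kinase, was also highest at CT14, with 11.9 and 12.0 CPM against 7.27 to 11.0 elsewhere, an amplitude of 0.24 ± 0.06 log2 (SE) and an adjusted p of 0.242 for the wave. Both CT14 libraries lay above the other 10 in Dbf4 and in Chek2, as in 4.72 percent of all tested genes. Orc4, of the origin recognition complex, was lowest at CT10, with 41.4 and 43.7 CPM against 47.5 to 54.8. CT10 of day 1 was the lowest library for 13 percent of all tested genes, and the share with both CT10 libraries lowest was not counted. The adjusted p of Orc4 for the times was 0.189 in edgeR's quasi-likelihood test. Pola2, of DNA polymerase alpha, had an amplitude of 0.08 ± 0.02 log2 (SE) and an adjusted p of 0.249 for the wave. Among the regulators, E2f2, an E2F activator, had an adjusted p of 0.214 for the times, Tfdp2, an E2F partner, 0.312 for the wave, and Rb1 itself 0.407 for the times. Of the other G1 genes, Cdk6 and the phosphatase Cdc25a had adjusted p of 0.299 and 0.381 for the wave, and the inhibitor Cdkn2d 0.388 for the times. The mitotic genes Bub3 and Kif22 had 0.379 each for the wave, and Btg2, an antiproliferative gene, had 0.3001 for the wave.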

How the data were processed

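The submitters' processing notes name GRCm38, STAR 2.5.1b, RSEM 1.2.28, Trimmomatic 0.35 and bcl2fastq 2.19, and the annotation is not given in the sources used here. Tables deposited by the authors hold unnormalised read counts per gene in 3 strand columns, of which column 4 was used, since 11.4% to 13.9% of its fragments and 77.6% to 80.9% of those in column 3 fell on no gene. Rows that name no gene held 29.3% to 31.2% of fragments and were left out. The authors also deposited RSEM expected counts, which are estimated counts (rounded here to whole numbers), and TPM, scaled by RSEM to 1 sum in every library. Of 50600 identifiers, 50376 had a symbol in GENCODE M21 (GRCm38), the source of gene coordinates. Promoter windows came from RefSeq, GRCm38.p6.

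Counts were filtered with filterByExpr by circadian time, scaled with TMM and tested with edgeR 4.0.16 (R 4.3.3, quasi-likelihood F tests, Benjamini-Hochberg adjustment over 16396 genes, threshold 0.05). The wave is a cosine and sine of 24 h, the times have 5 coefficients, and the day was tested beside the wave. Log2 CPM used a prior count of 2. The alternatives used DESeq2 1.42.0 and limma 3.58.1 on log2(TPM + 0.5) or log2(TPM + 0.1), other filters, scalings and count columns, and libraries left out. Each test was checked on simulated counts, with 50 changed genes per setting. The wave test recovered 12% of genes given an amplitude of 0.2 log2 and 88% at 0.4 log2. The times test recovered 36% of genes given a step of 0.6 log2 at CT14. The day test recovered 84% of genes given a difference of 0.5 log2. By the labels, replicate numbers are days of collection, which pairs the libraries. Over 10153 genes, differences between the days correlated between the 15 pairs of times from -0.60 to 0.35 (median 0.08). The rule named all 38 genes, Cd8a, Cd8b1, Cd3e, and the 2 genes of smallest p per further list in the wave and the times tests. The members and the lists were chosen with earlier results of these data known.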

Additional observations from a re-analysis of the deposited data

Results flagged for a closer look

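In each day's 6 libraries, the highest and the lowest value of each of the 38 genes was compared with its nearest neighbour by Dixon's test. It marked 10 of 76 groups, where chance marks about 1 in 20 (5 percent) of independent groups. Many of these genes varied together, and the share over all tested genes was not worked out. The count therefore cannot show whether these genes were marked more often than others. Ccnd2 read 878 CPM in CT14 of day 2, above the other 5 libraries of that day, and Mcm5 (98.5 CPM) and Pcna (164.5 CPM) were also marked as high in that library. Pcna read 215 CPM in CT2 of day 1. In CT6 of day 1, Tk1 (15.0 CPM), Plk1 (14.7 CPM), Aurkb (14.3 CPM) and Cdc20 (19.2 CPM) were marked as high. Mcm4 was marked as low in CT10 of day 1 (107.3 CPM) and Aurka as low in CT2 of day 2 (6.65 CPM).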

How the results depend on the processing

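No member passed in the 24 h, times or day tests with edgeR. Of 1820 wave and times tests of members under an alternative, 1805 stayed on that side of the threshold. For the 24 h wave (0 genes), DESeq2 called 246 genes, no filter 323, leaving out both CT2 libraries 431, and leaving out CT2 of both days with CT6 and CT10 of day 1, chosen after seeing the data, 490. In each of these 4 settings 1 member passed, Ccnd2. They tested 16396, 29911, 16275 and 16630 genes in that order, for the wave and for the times. Leaving out 1 library gave 0 to 145 genes (145 without CT2 of day 2) and 0 members. For the circadian times (42 genes), DESeq2 called 516, no filter 2146, leaving out both CT2 libraries 527 and the 4 libraries 792. Limma called 14 on log2(TPM + 0.5), 13 on log2(TPM + 0.1) and 72 without a filter. Members called were 1 (Ccnd2) with DESeq2, without both CT2 libraries and without the 4 libraries, and 4 (Ccnd2, Pcna, Rrm2 and Mki67) with no filter. Leaving out 1 library gave 6 to 1745 genes and 0 to 3 members: Ccnd2 without CT2 of day 1, and Ccnd2, Cdk2 and Pcna without CT2 of day 2. With the day as a replicate block, the wave had 0 genes and the times 20, and no member passed. For the day (0 genes), DESeq2 called 6, limma without a filter 1, leaving out both CT2 libraries 6, the 4 libraries 21, and 1 library 0 to 2, with no member among them. Without the 4 libraries the day differences of Cdc6 and Ccnb1 turned from -0.18 and -0.17 to 0.057 and 0.032 log2. The median gap of the mitotic genes at CT2 was 0.53 log2 in CPM and 0.27 on the log2(TPM + 0.5) scale. The cause of these changes was not tested. With 2 libraries per time, the precision of a time mean is low, and a library that differs from its pair cannot be told apart from a difference between days at that time.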
